A study of Homo sapiens with 12 samples.

Results

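Gene expression was compared between C4-2B and 22RV1, a pair of human prostate cancer cell lines, in cells that received no oligonucleotide. The comparison rests on the 6 control libraries, 3 per line, out of 12 libraries in the series; the other 6 received an oligonucleotide called 56 mer and were not used here. Both lines are labelled as wild type. The basal medium of every culture was glutamine-free RPMI-1640 with 5% fetal bovine serum. All 6 control cultures then had 2 mM L-glutamine for 48 h. Each library is bulk RNA from 1 culture of an established line, and the series describes the 3 libraries of a line as biological triplicates. The p-values measure the spread between these libraries. All libraries of C4-2B came in one deposited table and all libraries of 22RV1 in another, so that cell line, table and any handling that went with the line cannot be told apart.

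C4-2B is a derivative of the androgen-dependent line LNCaP that was recovered from a bone metastasis in a castrated mouse. 22RV1 was derived from the CWR22 xenograft after it relapsed in castrated mice. Androgens drive luminal prostate genes such as the kallikrein proteases KLK3 (prostate-specific antigen) and KLK2. Both lines are used as models of disease that grows at castrate hormone levels.

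Values are normalized reads: read counts worked back from the deposited values and scaled together over the 6 libraries with the trimmed mean of M-values (TMM). Differences are log2 values of C4-2B minus 22RV1, on the scale of normalized reads plus 1, so that positive values mean higher in C4-2B. A gene was called where limma's adjusted p was under 0.05 and the difference at least 1 on the log2 scale. The 6 libraries held 10245014 to 13627140 reads. Luminal markers (KRT8, KRT18, KLK3, KLK2, HOXB13, FOXA1, FOLH1, EPCAM and CDH1) were read in all 6 libraries. The basal markers KRT5 and TP63, the endothelial markers PECAM1 and CDH5 and the T-cell marker CD3E had 0 reads in every library. Other markers outside the luminal set were read. The basal keratin KRT14 had 22 reads in all in C4-2B and 1 in 22RV1. The fibroblast marker COL1A1 had 409 to 488 normalized reads in C4-2B and 248 to 274 in 22RV1. The endothelial marker VWF and the macrophage marker CD68 were read mostly in C4-2B, as given below. ETV1, an ETS factor that is rearranged in LNCaP, had 3 reads in all in the libraries labelled C4-2B, with 0, 0 and 2.995 normalized reads in C4-2B and 364, 381 and 427 in 22RV1. PCGEM1, a long noncoding RNA known from LNCaP, had 0 reads in the libraries labelled C4-2B and 0.9, 2.73 and 2.41 normalized reads in 22RV1. TMEFF2, which LNCaP is also known to express, had 2 reads in all in the libraries labelled C4-2B. The 3 genes thus go against what is known of the parent line. The identity of the cells was not tested beyond these markers, and C4-2B below means the libraries labelled so.

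Starts of genes that the results turn on are shown first, as the 250 bases before the RefSeq transcription start (build GRCh38.p14, 5′ to 3′ in the direction of the gene), with the matched letters in capitals. For KLK3 (chr19:50854665-50854914, plus strand) the capitals mark an androgen response element, AGAACA and AGTGCT with 3 bases between them, which starts 170 bases before the transcription start. For CHGA (chr14:92922900-92923149, plus strand) and VGF (chr7:101165570-101165819, minus strand) they mark the cyclic AMP response element TGACGTCA, 54 and 79 bases before the start. For CA9 (chr9:35673678-35673927, plus strand), ANKRD37 (chr4:185396591-185396840, plus strand) and BNIP3 (chr10:131981924-131982173, minus strand) they mark ACGTG, the core of the hypoxia response element, on either strand; matches on opposite strands can overlap.
KLK3: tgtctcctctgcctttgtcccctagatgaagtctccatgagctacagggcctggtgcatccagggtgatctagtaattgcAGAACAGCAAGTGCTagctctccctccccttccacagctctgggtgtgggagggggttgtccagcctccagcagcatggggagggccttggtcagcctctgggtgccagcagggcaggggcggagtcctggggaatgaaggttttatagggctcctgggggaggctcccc
CHGA: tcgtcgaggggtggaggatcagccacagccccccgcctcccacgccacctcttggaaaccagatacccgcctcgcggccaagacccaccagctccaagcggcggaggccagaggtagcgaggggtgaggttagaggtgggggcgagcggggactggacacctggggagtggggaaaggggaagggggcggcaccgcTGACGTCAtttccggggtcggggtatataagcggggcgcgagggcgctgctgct
VGF: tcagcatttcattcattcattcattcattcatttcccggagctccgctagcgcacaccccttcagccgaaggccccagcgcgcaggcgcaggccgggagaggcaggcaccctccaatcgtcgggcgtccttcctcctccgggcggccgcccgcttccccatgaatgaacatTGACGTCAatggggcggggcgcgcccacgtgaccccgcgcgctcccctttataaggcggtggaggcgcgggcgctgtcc
CA9: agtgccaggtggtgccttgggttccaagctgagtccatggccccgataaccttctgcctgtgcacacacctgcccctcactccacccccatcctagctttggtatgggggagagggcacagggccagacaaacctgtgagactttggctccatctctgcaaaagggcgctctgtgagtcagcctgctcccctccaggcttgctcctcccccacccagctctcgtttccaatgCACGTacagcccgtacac
ANKRD37: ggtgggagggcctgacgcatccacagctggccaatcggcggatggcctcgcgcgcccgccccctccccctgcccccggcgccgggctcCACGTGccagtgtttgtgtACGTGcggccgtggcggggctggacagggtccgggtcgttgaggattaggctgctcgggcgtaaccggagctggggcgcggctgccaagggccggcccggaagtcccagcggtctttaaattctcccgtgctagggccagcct
BNIP3: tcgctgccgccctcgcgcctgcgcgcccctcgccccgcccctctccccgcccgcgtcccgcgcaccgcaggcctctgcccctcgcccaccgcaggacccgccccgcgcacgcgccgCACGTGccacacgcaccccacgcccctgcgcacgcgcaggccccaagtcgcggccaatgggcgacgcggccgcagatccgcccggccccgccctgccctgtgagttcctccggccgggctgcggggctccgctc
The 15-base androgen element was found on either strand in the same 250-base window of 0.0256% of the 27305 genes in the RefSeq table, TGACGTCA in 2.03% and ACGTG in 21.7%. Among the androgen-induced genes called higher in C4-2B, 20 had a sequence in the table, and KLK3 was the 1 with the 15-base element. Of 13 neuroendocrine genes called higher in 22RV1 with a sequence, CHGA and VGF were the 2 with TGACGTCA. Of 23 glycolysis and low-oxygen genes called higher in C4-2B with a sequence, 15 held ACGTG, against 5 of the 12 other list members with a sequence. These matches describe letters in a window and say nothing of whether a factor bound there.

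The lines differed over much of the transcriptome. Of 19876 genes with at least 10 normalized reads in at least 3 libraries, 3979 (20.0%) were called higher in C4-2B and 6200 (31.2%) higher in 22RV1, together 51.2%; without a minimum difference the adjusted p alone was passed by 73.8% (32.3% higher in C4-2B and 41.5% in 22RV1). The median difference over all tested genes was -0.27. Large differences lay mostly on the side of 22RV1: 2987 genes were higher there by at least 3 on the log2 scale, against 639 in C4-2B. C4-2B libraries held reads of 20779 to 22317 genes and 22RV1 libraries of 28971 to 30567, and the ranges did not overlap (means 21523 ± 770.3 and 29909 ± 834, SD, n = 3 each; two-sided exact permutation test p = 0.1, the smallest that 3 against 3 allows). After thinning every library to 10245014 reads the means were 21453 and 29557. The 100 most abundant genes took 23.3% of the reads in C4-2B and 16.1% in 22RV1. Reads of mitochondrially encoded entries made up 7.65% ± 0.0493 of the C4-2B libraries and 5.48% ± 0.143 of those of 22RV1 (SD, n = 3 each; exact permutation p = 0.1). For the 13 protein-coding mitochondrial genes alone the shares were 5.23% ± 0.0364 and 4.86% ± 0.114 (SD, n = 3 each; exact permutation p = 0.1), a difference of 0.373 instead of 2.16 percentage points.

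**Figure D1:**
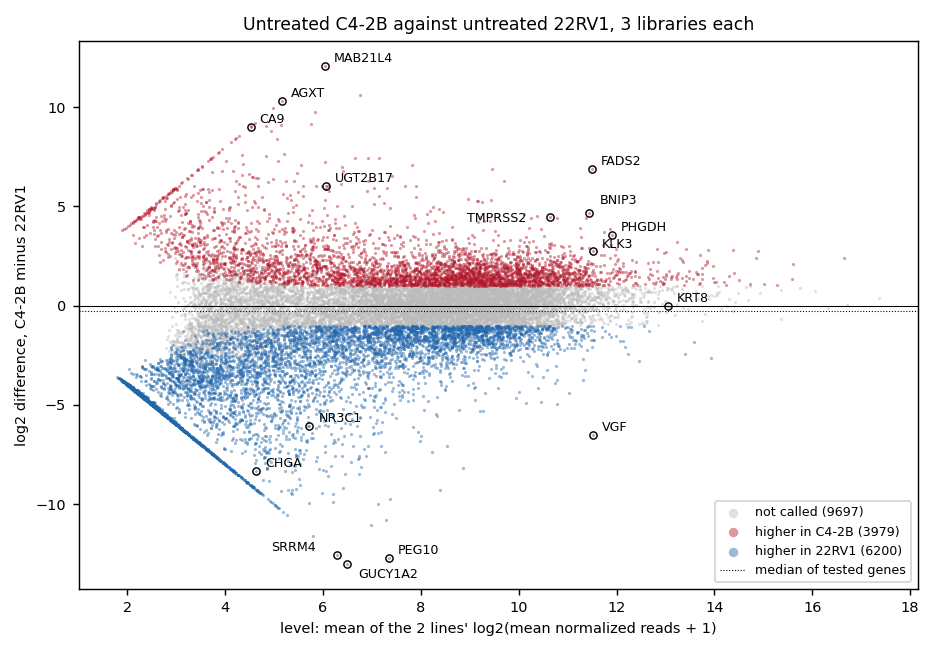
Each point is 1 of 19876 tested genes, with its level (mean of the 2 lines' log2 of mean normalized reads plus 1) on the x axis and its log2 difference, C4-2B minus 22RV1, on the y axis. Red and blue points are the 3979 and 6200 called genes, and the straight lower edge is made of genes with no read in C4-2B.

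The split of the calls moved with the level and length of the genes. When the genes were put into 10 classes of like size by mean level, 11.6% of the lowest class were called higher in C4-2B and 46.9% in 22RV1, and 35.8% and 12.4% of the highest. Over 11839 genes, the difference correlated with transcript length at Spearman's rho = -0.44 and with GC content at rho = 0.35, across genes, which are not independent replicates. For the deviation of single libraries from the mean of their line, the same correlations ran from -0.15 to 0.07 for length and from -0.25 to 0.24 for GC content. A correction for GC content and length, added after the data had been seen, left 3744 (19.7%) and 4946 (26.0%) of 19020 genes called, together 45.7%, and 7303 of 9680 calls kept their call; its values are called corrected below. Quantile normalization, which forces equal distributions on the libraries, gave 5178 genes higher in C4-2B and 4758 in 22RV1, so that C4-2B's share of the calls rose from 39.1% to 52.1%, with a median shift of 0.34. Scaling to equal totals gave 2768 and 7740, a share of 26.3% and a median shift of -0.36.

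**Figure D2:**
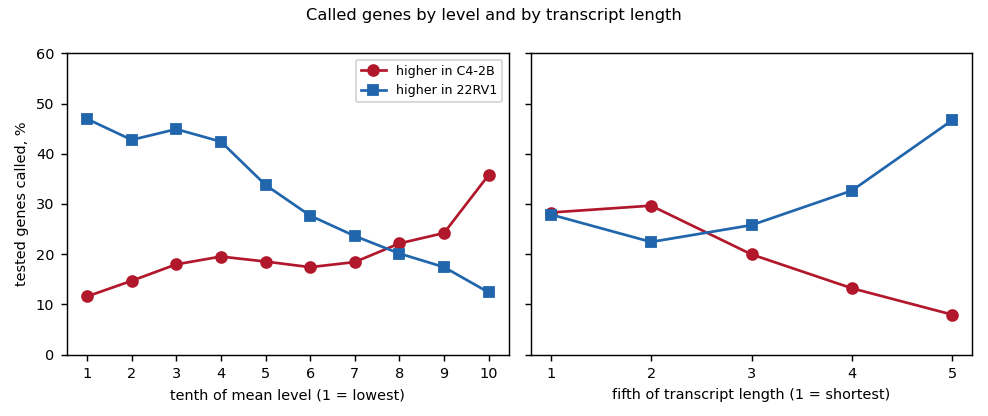
Share of tested genes called higher in C4-2B (red circles) and in 22RV1 (blue squares), in percent, in 10 classes of mean level (left) and 5 classes of transcript length (right). In the class of the longest transcripts 46.7% of genes were called higher in 22RV1 and 7.94% in C4-2B.

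Androgen-induced genes were more often higher in C4-2B than in 22RV1. KLK3 had 7266, 8051 and 7336 normalized reads in C4-2B and 1168, 994 and 1247 in 22RV1, 6.65-fold higher in C4-2B (log2 difference 2.74 ± 0.09 (SE), adjusted p = 1.6e-07). TMPRSS2, a surface protease whose promoter is androgen-driven, had 7372, 7616 and 7303 normalized reads in C4-2B and 349, 341 and 322 in 22RV1. That is a 22.04-fold difference in means, and all C4-2B libraries lay above all of 22RV1. FKBP5, a chaperone partner of steroid receptors, went the other way and was higher in 22RV1, with 906 to 1106 against 2805 to 2856 normalized reads in C4-2B against 22RV1 and a difference of -1.45; the corrected value was -0.34 and not called. KLK2 was 2.08-fold higher in C4-2B, with 3213 to 3595 against 1509 to 1790.3 normalized reads. Its call was lost under several settings: the difference of 1.06 became 0.99 without library 1 of C4-2B or without library 2 of 22RV1, 0.91 after correction, 0.71 under equal totals and 0.64 under quantile normalization.

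Of 47 tested androgen-induced genes, 25 were called higher in C4-2B and 9 in 22RV1 (median 1.19, against -0.27 over all tested genes and 20.0% and 31.2% called). The largest differences were those of TRPM8, a cold-gated ion channel, and ORM1, an acute-phase plasma protein. TRPM8 had 52.8 to 55.9 against 0 to 0.9 normalized reads in C4-2B against 22RV1. ORM1 had 20.1 to 36.5 against 0, at least 32.8-fold higher in C4-2B when 22RV1 is set at 3 reads over its 3 libraries, the floor used for every group without a read. NDRG1, which responds to androgen and to low oxygen, differed by 4.39 (7789 to 8529.6 against 367 to 401 normalized reads), higher in C4-2B. Of 24 tested androgen-repressed genes 10 were higher in C4-2B and 9 in 22RV1, so that list had no common side. It held ACKR3, a chemokine scavenger receptor, with 539, 502 and 541 normalized reads in C4-2B and 0 in all 3 22RV1 libraries (at least 607-fold higher in C4-2B), and DDC, which makes dopamine and serotonin from their precursors, with 1683, 1593 and 1526 normalized reads in C4-2B and 21.6, 14.6 and 14.4 in 22RV1. On the other side stood TMEFF2, a membrane protein with follistatin domains, which had 2 reads in all 3 C4-2B libraries together and 1629, 1357 and 1469 normalized reads in 22RV1.

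Among transcription factors of the prostate epithelium FOXA1 and GATA2 were not called, with differences of 0.06 ± 0.04 and -0.05 ± 0.10 (SE); that of FOXA1 became -0.08 after correction. HOXB13, the homeobox factor of the prostate, had 4628 to 5028 against 2485 to 2894 normalized reads and a difference of 0.80, under the minimum of 1. NR3C1, the glucocorticoid receptor, had 7.54, 4.01 and 4.99 normalized reads in C4-2B and 393, 465 and 417 in 22RV1, 77.1-fold higher in 22RV1 (log2 difference -6.06 ± 0.30 (SE), adjusted p = 1.1e-06). GATA3, a luminal epithelial factor, was likewise near absent in C4-2B, with 0 to 6.69 against 171 to 204 normalized reads against 22RV1. NR2F1, an orphan nuclear receptor, was 8.26-fold higher in 22RV1.

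**Figure D3:**
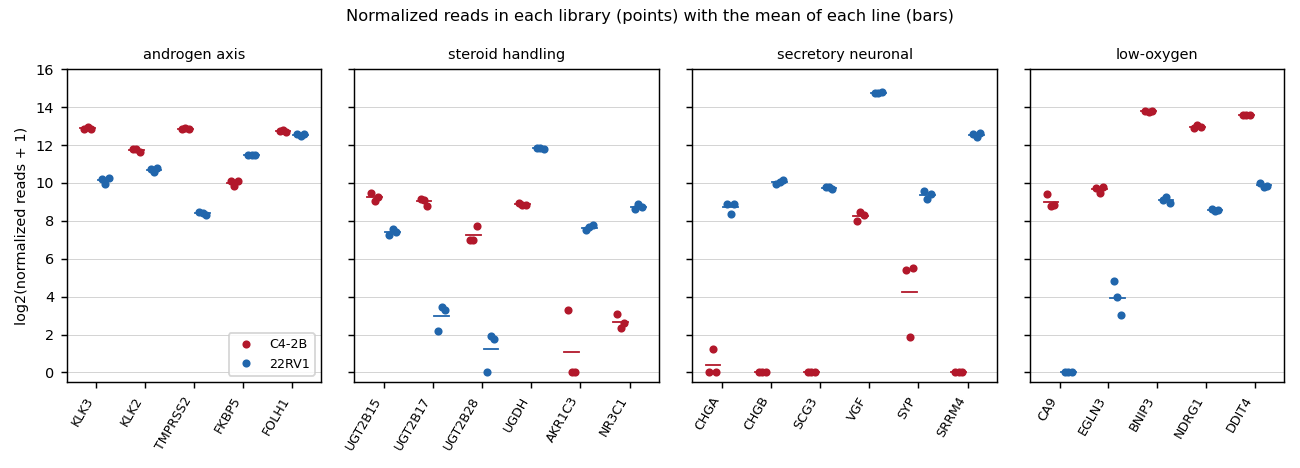
Points give log2 of normalized reads plus 1 in each of 3 C4-2B libraries (red) and 3 22RV1 libraries (blue), with short bars at the mean of each line. FOLH1 lies close between the lines, KLK3 and TMPRSS2 are higher in C4-2B, and CHGB, SCG3 and SRRM4 sit at 0 in all 3 C4-2B libraries.

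The tested UGT2B genes were higher in C4-2B, and UGDH was higher in 22RV1. UGT2B enzymes attach glucuronic acid to dihydrotestosterone and its metabolites, which inactivates them, and UGDH makes the activated sugar that they use. UGT2B17 had 569, 552 and 445 normalized reads in C4-2B and 3.601, 10.01 and 8.83 in 22RV1, 69.8-fold higher in C4-2B (log2 difference 6.04 ± 0.37 (SE), adjusted p = 3.3e-06). UGT2B15 had 703, 532 and 608 normalized reads in C4-2B and 150.3, 188 and 172 in 22RV1, and UGT2B28 124 to 209 against 0 to 2.73 in C4-2B against 22RV1. The 3 genes showed the same order of lines without overlap. UGT2B11 and UGT2B10 were 41.6-fold and 5.44-fold higher in C4-2B. These paralogs are near-identical in sequence, so the division of reads among them is uncertain. UGDH went the other way, with 489, 451 and 463 normalized reads in C4-2B and 3749.5, 3645 and 3547 in 22RV1. Of 8 tested members of the family list 5 were higher in C4-2B and 2, UGDH and UGT1A1, in 22RV1; the other 15 were below the filter, among them UGT1A3, UGT1A4 and UGT1A5.

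Steroid-converting enzymes had no common side, with 9 of 24 tested genes higher in each line. Over all tested genes 20.0% were higher in C4-2B and 31.2% in 22RV1. AKR1C3, which reduces androstenedione to testosterone, had 8.799, 0 and 0 normalized reads in C4-2B and 180.1, 201 and 218 in 22RV1 (log2 difference -6.55 ± 0.89 (SE), adjusted p = 0.00027); 2 of the 3 C4-2B libraries had none, and its close paralogs make the exact count uncertain. CYP7B1, an oxysterol hydroxylase, had 0 reads in C4-2B and 45.5 to 65.8 normalized reads in 22RV1. CYP11A1, which starts steroid synthesis from cholesterol, was low but on the side of C4-2B (30.8 to 77.9 against 0 to 0.91 normalized reads), as was the bile-acid reductase AKR1D1 (14.7 to 49.9 against 0). HSD17B6, which regenerates active androgen from its metabolites, overlapped between the lines, with 49.02, 136 and 111 normalized reads in C4-2B and 114, 150.2 and 136 in 22RV1 (-0.55 ± 0.37, SE, adjusted p = 0.21).

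Several luminal identity genes differed little between the lines. KRT8, the luminal keratin, had 8565, 8527 and 8319 normalized reads in C4-2B and 8304, 8331 and 8698 in 22RV1, a difference of 0.00 ± 0.03 (SE) with a 95% confidence interval of -0.074 to 0.083. FOLH1 (prostate-specific membrane antigen) had 6835, 6998 and 6625 normalized reads in C4-2B and 6092, 5678 and 6097 in 22RV1 and a difference of 0.20; STEAP1, another prostate surface protein, differed by 0.19 and the adhesion molecule CDH1 by -0.18. These 3 differences passed the adjusted p but not the minimum size, and their signs depended on the scaling. FOLH1 and STEAP1 became -0.37 and -0.20 under quantile normalization, and CDH1 became 0.23 after correction. The KRT8 difference became -0.41 after correction and -0.76 under quantile normalization. TFF3, a secreted trefoil peptide of mucous cells, had 307, 332 and 369 normalized reads in C4-2B and 0 in all 3 22RV1 libraries, at least 387-fold higher in C4-2B. The surface peptidase DPP4 and the prostate stem cell antigen PSCA were 13.7-fold and 22.5-fold higher in C4-2B, whereas the mucin-type antigen CD24 was 14.7-fold higher in 22RV1. The luminal markers KRT18 and EPCAM differed by 0.92 and 0.59, under the minimum size. Over 23 tested luminal markers 10 were higher in C4-2B and 3 in 22RV1, against 20.0% and 31.2% of all tested genes. Among basal markers, which were split 4 against 7 of 13 tested, CD44, a hyaluronan receptor, had 0, 0 and 3.99 normalized reads in C4-2B and 943, 900.4 and 862 in 22RV1. The laminin chain LAMA3, by contrast, was 64.8-fold higher in C4-2B (1768 to 1978 against 20.9 to 36.01 normalized reads). PCA3, a prostate-specific long noncoding RNA, was 3.102-fold higher in 22RV1, a call that was lost after correction (-1.63 became -0.91).

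Neuroendocrine genes stood almost wholly on the side of 22RV1. Neuroendocrine prostate cells carry dense-core secretory granules packed with granins, and a neuronal splicing and transcription programme. Of 21 tested markers 19 were higher in 22RV1 and 1 in C4-2B (median -5.05), against 31.2% and 20.0% of all tested genes. No tested marker overlapped between the lines, but most tested genes did not either: 4482 of 19876 overlapped. The other 15 members of the list, among them INSM1, NEUROD1 and FOXA2, were below the filter. In bulk RNA fewer cells with such a programme and less RNA per cell cannot be told apart.

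The granins were read in 22RV1 and near absent in C4-2B. CHGA, chromogranin A, had 0, 1.34 and 0 normalized reads in C4-2B and 466, 332 and 474 in 22RV1. CHGB, its paralog chromogranin B, had 0 reads in all 3 C4-2B libraries and 978, 1045 and 1123 normalized reads in 22RV1, at least 889-fold higher in 22RV1. SCG3, a granin that helps sort cargo into granules, had 0 reads in all 3 C4-2B libraries and 878, 868 and 818 normalized reads in 22RV1. VGF, a precursor of secreted neuropeptides whose start holds the same element as that of CHGA, was read in both lines, with 254, 357 and 312 normalized reads in C4-2B and 27684, 27899 and 28469.9 in 22RV1, and was 91.1-fold higher in 22RV1 (log2 difference -6.52 ± 0.11 (SE), adjusted p = 1.1e-08). SYP, a synaptic vesicle membrane protein, had 41.5, 2.68 and 43.9 normalized reads in C4-2B and 759, 569 and 683 in 22RV1; library 2 of C4-2B was far below the others, and the lines still did not overlap.

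Regulators linked to the programme were higher in 22RV1 as well. SRRM4, a splicing factor of neuronal microexons, had 0 reads in all 3 C4-2B libraries and 6214, 5437 and 6361 normalized reads in 22RV1, at least 5093-fold higher in 22RV1 (log2 difference -12.55 ± 0.20 (SE), adjusted p = 7.7e-09). PEG10, a retrotransposon-derived gene linked to neuroendocrine prostate cancer, had 0, 0 and 3.99 normalized reads in C4-2B and 11165, 11750.2 and 11075 in 22RV1. CELF3, SNAP25 and CHRNB2, none of them named by the rule and chosen after their values were seen, code for a neuronal splicing factor, a vesicle fusion protein and a nicotinic receptor subunit. CELF3 had 2 reads in all in C4-2B against 843 to 1013 normalized reads in 22RV1, SNAP25 none against 619.5 to 637, and CHRNB2 6.69 to 24.96 against 1187 to 1236. DLL3, a Notch ligand and a surface target in neuroendocrine cancer, was the 1 marker higher in C4-2B, with 261, 302 and 299 normalized reads in C4-2B and 54.9, 34.6 and 99.5 in 22RV1 (log2 difference 2.30 ± 0.35 (SE), adjusted p = 0.00054). REST, the repressor of neuronal genes, was not lower but 3.23-fold higher in 22RV1 (391 to 521 against 1355 to 1604 normalized reads).

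Genes read in 1 line alone were mostly genes of 22RV1. Such genes had at least 100 normalized reads in each of the 3 libraries of one line. In the 3 libraries of the other line together they had at most 3 reads. By this rule 293 genes were seen in 22RV1 alone and 28 in C4-2B alone. Of these, 246 and 19 had 0 reads in the other line, and 247 and 14 were protein-coding. Beside SRRM4, TMEFF2 and MUC13, those with the most reads in 22RV1 included GUCY1A2, a subunit of the nitric oxide receptor, with 0 reads in all 3 C4-2B libraries and 8073, 7891 and 8439 normalized reads in 22RV1 (at least 6899.9-fold). CBLN2, a secreted synapse organizer, had 2919 to 3239 normalized reads in 22RV1. DOK6, an adaptor of receptor tyrosine kinases, had 1440.3 to 1496, CACNA2D1, a calcium channel subunit, 1136 to 1199, and EPHA7, an ephrin receptor, 1129.8 to 1184. In C4-2B the most reads fell on MAB21L4, with 4197, 4720.3 and 4117 normalized reads in C4-2B and 0 in all 3 22RV1 libraries, at least 5004-fold. AGXT, a liver peroxisomal enzyme that detoxifies glyoxylate, followed with 1262, 1318 and 1227 normalized reads in C4-2B and 0 in all 3 22RV1 libraries, and PLA2G2A, a secreted phospholipase, with 1026, 980.4 and 986 normalized reads in C4-2B and 0 in all 3 22RV1 libraries. H2AJ, a variant histone gene, had 682 to 866 against 0 to 1.800 normalized reads in C4-2B against 22RV1. The antigen gene MAGEA10 had 611 to 662 against 0 to 0.802 normalized reads in C4-2B against 22RV1, and NLRP2, an innate immune receptor family member, 574 to 657 against 0 to 1.605. IGHE, an immunoglobulin heavy chain constant gene, had 512 to 663 against 0.

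The clustered protocadherins formed the longest run of neighbouring genes on one side; they were picked out after their values were seen. These cell-surface cadherins give neurons an individual identity and sit in an alpha, a beta and a gamma cluster next to each other. In GENCODE order 29 consecutive tested protein-coding genes of the alpha and beta clusters were called higher in 22RV1 (median -6.65). Reads of all 15 alpha genes together numbered 0 to 1 per C4-2B library and 2115 to 2419 per 22RV1 library, and those of 16 beta genes 0 to 5 and 2243 to 2576. The gamma genes had more reads in C4-2B than the other clusters, with 64 to 80 reads against 1667 to 1824, and 18 of 20 tested were higher in 22RV1. Over the 3 clusters 47 of 49 tested genes were higher in 22RV1 and none in C4-2B, with the same 47 and 0 after correction. Of all tested genes 31.2% were higher in 22RV1 and 20.0% in C4-2B, and 26.0% and 19.7% after correction. No read was found in C4-2B for 33 of 53 genes. Those of them that were tested passed the filter through 22RV1 alone, which fixed their side in advance. Genes of the alpha and of the gamma cluster share their last exons, so single members are uncertain and the sums are the firmer values. Outside the clusters, 7 of 9 tested protocadherin genes were also higher in 22RV1.

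**Figure D4:**
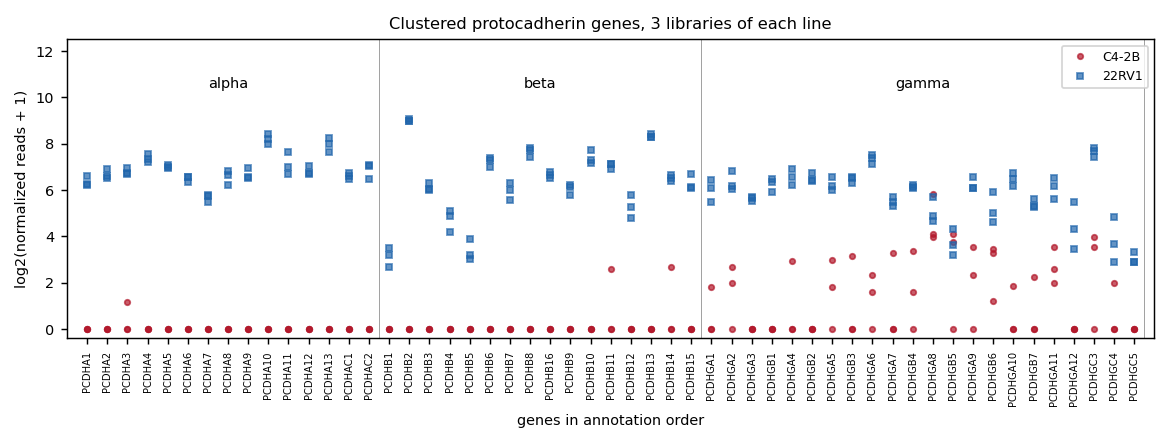
Normalized reads, as log2 of reads plus 1, of 53 clustered protocadherin genes in annotation order, with 1 point per library (C4-2B red circles, 22RV1 blue squares). In C4-2B nearly all alpha and beta genes lie at 0, whereas all genes were read in 22RV1.

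A second run held 20 neighbouring zinc finger genes from ZNF708 to ZNF681, members of a large family of transcriptional repressors (median -5.14). Together they had 540 to 899 reads per C4-2B library and 5762 to 6094 per 22RV1 library, and 9 of the 20 had none in C4-2B. After correction 16 of the 20 kept their call. Of 35 runs of at least 7 genes 29 were higher in 22RV1 and 6 in C4-2B. Single genes were also called more often in 22RV1, at 31.2% of all tested genes against 20.0% in C4-2B. Whether neighbours shared a side beyond those shares was not tested. The longest of the latter held 12 genes, from FIZ1 to ZNF444, with a median of 1.47, and 5 of the 12 kept their call after correction.

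By number of calls, developmental patterning genes were also mostly on the side of 22RV1. HOX genes, which set position along the body axis, were higher in 22RV1 in 18 and in C4-2B in 4 of 28 tested (median -1.93). Over all tested genes the shares were 31.2% and 20.0%. The summed reads of the HOX list went the other way, with 7502 to 7767 normalized reads in C4-2B and 6278 to 7064 in 22RV1. HOXC10 had 0, 5.35 and 0 normalized reads in C4-2B and 346, 229 and 285 in 22RV1, and HOXB4 and HOXA9 had 0 and 1 reads in all in C4-2B. A run of 9 neighbours from SNX10 to HOXA9 was higher in 22RV1. Of 25 tested Polycomb, SOX and stem cell genes 5 were higher in C4-2B and 14 in 22RV1 (20.0% and 31.2% of all tested genes). Those higher in 22RV1 included SOX5 (0 against 159 to 177 normalized reads) and the neural RNA-binding protein MSI1 (0 against 393 to 445). The drug efflux pump ABCG2 (0 to 22.7 against 383 to 437) was another. This list, too, summed higher in C4-2B, with 17268 to 17986 normalized reads against 14003 to 15335 in 22RV1. Of 21 tested imprinted genes 2 were higher in C4-2B and 11 in 22RV1, with PEG10, its neighbour SGCE (0 to 5.99 against 1265 to 1383 normalized reads), PLAGL1 (0 to 3.99 against 285 to 362) and MAGEL2 (0 against 126 to 182) largest.

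Mesenchymal genes were called higher in 22RV1 more often than in C4-2B, but their summed reads overlapped between the lines. VIM, the filament protein vimentin, had 45.3, 28.1 and 71.9 normalized reads in C4-2B and 2109, 1899 and 2057 in 22RV1, 41.8-fold higher in 22RV1 (log2 difference -5.45 ± 0.30 (SE), adjusted p = 1.9e-06). TWIST1, a factor of epithelial to mesenchymal transition, had 0 reads in all 3 C4-2B libraries and 180.1, 169 and 168 normalized reads in 22RV1, and TGFB2, a secreted growth factor, 0 reads in all 3 C4-2B libraries and 330.4, 336 and 318 normalized reads in 22RV1. Altogether 15 of 25 tested genes were higher in 22RV1 and 3 in C4-2B (31.2% and 20.0% of all tested genes). The list median of -2.77 was -0.93 among genes with a mean of at least 50 normalized reads, -1.69 with a pseudocount of 10 and -1.75 under quantile normalization. The whole list summed to 9280.1 to 9628 normalized reads in C4-2B and 9479 to 9580.4 in 22RV1, ranges that overlapped. COL6A1 and COL6A2, collagen VI chains named here for their part in that sum, were 3.98-fold and 13.8-fold higher in C4-2B. Markers of fibroblasts and muscle summed to 753 to 879 normalized reads in C4-2B and 863 to 906 in 22RV1, with 11 of 18 below the filter, and DCN had no read in C4-2B and 8 in all in 22RV1. Their part in the mesenchymal values was not tested. Leukocyte and endothelial markers, 19 of 26 of them below the filter, summed to 247 to 514 normalized reads in C4-2B and 238 to 295 in 22RV1. VWF, an endothelial clotting protein, had 272, 149.8 and 99.8 normalized reads in C4-2B and 7.202, 0 and 0.802 in 22RV1, and CD68, a lysosomal protein of macrophages, 153, 261 and 86.9 normalized reads in C4-2B and 9.903, 19.1 and 18.5 in 22RV1, both higher in C4-2B.

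Gastrointestinal and hepatic lineage genes were split, with 13 of 26 tested higher in 22RV1 and 8 in C4-2B. The shares over all tested genes were 31.2% and 20.0%. HNF4G, which opens gut-type enhancers in part of prostate cancers, had 12.6, 34.8 and 5.99 normalized reads in C4-2B and 122, 164 and 186 in 22RV1, and SPINK1, a trypsin inhibitor, 1.26, 0 and 8.99 normalized reads in C4-2B and 77.4, 77.4 and 59.4 in 22RV1. The lines did not overlap for either gene. ALB, serum albumin, had 0 reads in all 3 C4-2B libraries and 276, 299 and 401 normalized reads in 22RV1, SI, an intestinal disaccharidase, 0 reads in all 3 C4-2B libraries and 196, 211 and 152 normalized reads in 22RV1, and MUC13, a gut membrane mucin, 0 reads in all 3 C4-2B libraries and 1271, 1363 and 1322 normalized reads in 22RV1. In C4-2B the hepatic side held AGXT, given above.

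Glycolytic and low-oxygen genes were mostly higher in C4-2B. This programme is switched on by hypoxia-inducible factors, which bind ACGTG. Of 42 tested genes 27 were higher in C4-2B and 4 in 22RV1 (median 1.79, corrected 1.74). The shares of all tested genes were 20.0% and 31.2%, with a median of -0.27. Under quantile normalization the list median was 1.38, and under equal totals 1.45. CA9, a surface carbonic anhydrase that is a standard hypoxia marker, had 674, 435 and 464 normalized reads in C4-2B and 0 in all 3 22RV1 libraries, at least 604-fold higher in C4-2B. EGLN3, an oxygen sensor that is itself induced by low oxygen, had 864, 718 and 899 normalized reads in C4-2B and 27.01, 14.6 and 7.22 in 22RV1 (log2 difference 5.75 ± 0.41 (SE), adjusted p = 7.4e-06). BNIP3, a mitophagy receptor, had 14209.9, 13777 and 14115 normalized reads in C4-2B and 552, 612 and 489 in 22RV1, 25.5-fold higher. ANKRD37, whose start holds ACGTG and whose value was looked up for that reason, was 11.1-fold higher. The 4 genes showed C4-2B above 22RV1 in every library.

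Enzymes along the glycolytic chain, chosen for their roles after the values were seen, were higher in C4-2B too: GPI by 2.72, ALDOC by 3.86, PGK1 by 2.87, ENO1 by 2.79, PKM by 2.27 and LDHA by 3.21 on the log2 scale. HIF1A, which codes for the oxygen-regulated factor itself, differed by -0.35 and EGLN1, the main oxygen sensor, by -0.31, and neither was called. EPAS1, the related factor, was higher in 22RV1 (16.3 to 48.9 against 159 to 186 normalized reads). ENO2, the enolase of neurons, was higher in 22RV1, as were ADM and LDHB. BHLHE40, a transcription factor induced by low oxygen, had the largest difference on the side of C4-2B among genes at or above the median level, with 2695, 2549 and 2598 normalized reads in C4-2B and 16.2, 19.1 and 20.9 in 22RV1 (139.6-fold, log2 difference 7.06 ± 0.13 (SE), adjusted p = 1.8e-08). Oxygen, cell density and medium at harvest are not given in the labels, and their part was not tested.

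Genes of the serine, one-carbon and ATF4 list were higher in C4-2B in part. ATF4 is the factor that answers amino acid shortage and switches on serine synthesis and amino acid transport. Of 36 tested genes 18 were higher in C4-2B and 1 in 22RV1 (median 1.01), against 20.0% and 31.2% of all tested genes. Under quantile normalization the counts were 13 and 2, with a median of 0.73. PHGDH, the first enzyme of serine synthesis, had 13511, 13108 and 13067 normalized reads in C4-2B and 1052, 1145 and 1132 in 22RV1, 11.9-fold higher. DDIT4, an inhibitor of mTORC1, had 12458, 12299 and 12408 normalized reads in C4-2B and 1019, 891 and 908 in 22RV1. FGF21, a stress hormone, had 234, 247 and 218 normalized reads in C4-2B and 0 in all 3 22RV1 libraries. ALDH1L2, the mitochondrial folate dehydrogenase, was the exception, with 7.54, 9.36 and 16.97 normalized reads in C4-2B and 1963, 2177 and 1659.5 in 22RV1 (171-fold higher in 22RV1). ASNS, asparagine synthetase and a standard ATF4 target, overlapped between the lines with 173, 169.9 and 136 normalized reads in C4-2B and 128, 100.1 and 170.1 in 22RV1 (0.29 ± 0.23, SE, adjusted p = 0.27).

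Glutamine genes, read here in cells given glutamine, had no common side: 6 of 33 were higher in C4-2B and 9 in 22RV1. These counts lie near the shares over all tested genes, 20.0% and 31.2%. GLUL, which makes glutamine, was 2.85-fold higher in C4-2B, with 2293, 2503 and 2563 normalized reads in C4-2B and 859, 799 and 928 in 22RV1. PYCR1, the enzyme of proline synthesis, was 7.47-fold higher in C4-2B and OAT, ornithine aminotransferase, 7.099-fold higher in 22RV1. The main glutamine importer SLC1A5 was 2.103-fold higher in C4-2B (1.07), a call lost after correction (0.48) and under both other scalings, and at 0.998 without library 3 of C4-2B. SLC38A2, a glutamine importer that adapts to shortage, was 6.85-fold higher in 22RV1, with 2149, 2156 and 2141 normalized reads in C4-2B and 14444, 14840.3 and 14853 in 22RV1, and SLC7A5, the large neutral amino acid exchanger, 6.21-fold higher, with 5988, 6554 and 6137 normalized reads in C4-2B and 39209, 36158 and 40583 in 22RV1. SLC7A11, the cystine importer, was not called (-0.21 ± 0.10, SE, adjusted p = 0.1), and was called on the side of C4-2B after correction (1.46). Among 34 tested transporters 14 were higher in 22RV1, with SLC6A15, SLC43A3 and SLC38A4 at 0 reads in C4-2B, and 6 in C4-2B, against 31.2% and 20.0% of all tested genes; after correction the counts were 12 and 8.

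Lipid synthesis genes leaned to C4-2B, with 24 of 41 tested genes higher there and 4 in 22RV1 (median 1.17, corrected 1.10). For all tested genes the shares were 20.0% and 31.2% and the median -0.27 (corrected -0.02). FADS2, the delta-6 fatty acid desaturase, had 28974, 34732 and 30044 normalized reads in C4-2B and 286, 261 and 247 in 22RV1, 118-fold higher (log2 difference 6.87 ± 0.08 (SE), adjusted p = 7.1e-09). SREBF1 and FASN, the regulator and the central enzyme of fatty acid synthesis, looked up after the values were seen, were 14.7-fold and 5.82-fold higher. ELOVL6, an elongase, and ACSL4, which loads polyunsaturated fatty acids into membranes, were higher in 22RV1, by 17.6-fold and 16.8-fold.

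The counts in this paragraph stand against 20.0% of all tested genes higher in C4-2B and 31.2% in 22RV1. Of 45 tested genes of respiration and the citrate cycle 17 were higher in C4-2B and none in 22RV1. Under quantile normalization these counts were 12 and 1, and the median of 0.69 became 0.40. IDH2, mitochondrial isocitrate dehydrogenase, was 5.92-fold and NDUFB10, a complex I subunit, 4.64-fold higher in C4-2B. Ribosomal protein genes were higher in C4-2B in 41 of 65 (median 1.12), but in 9 under quantile normalization. The exception was RPL39L, a paralog used in germ cells, with 0 reads in all 3 C4-2B libraries and 86.4, 115 and 92.3 normalized reads in 22RV1. Of 13 mitochondrially encoded genes MT-CO3, MT-ND3 and MT-CYB were higher in C4-2B (1.33, 1.16 and 1.05), calls that were lost under equal totals and under quantile normalization, where their median of 0.39 became -0.32. MT-ND4L was higher in 22RV1 (-1.91). Replication-dependent histone genes were higher in C4-2B in 9 of 10 tested, led by the linker histone H1-2 with 7579, 7269.7 and 7133 normalized reads in C4-2B and 104, 90.1 and 85.1 in 22RV1 (78.6-fold); their transcripts largely lack a poly(A) tail, and the labels name total RNA without saying how it was selected for sequencing. ASS1, which makes argininosuccinate from citrulline, had 3408, 3169 and 2883 normalized reads in C4-2B and 88.2, 79.2 and 63.4 in 22RV1, 40.98-fold higher in C4-2B.

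**Figure D5:**
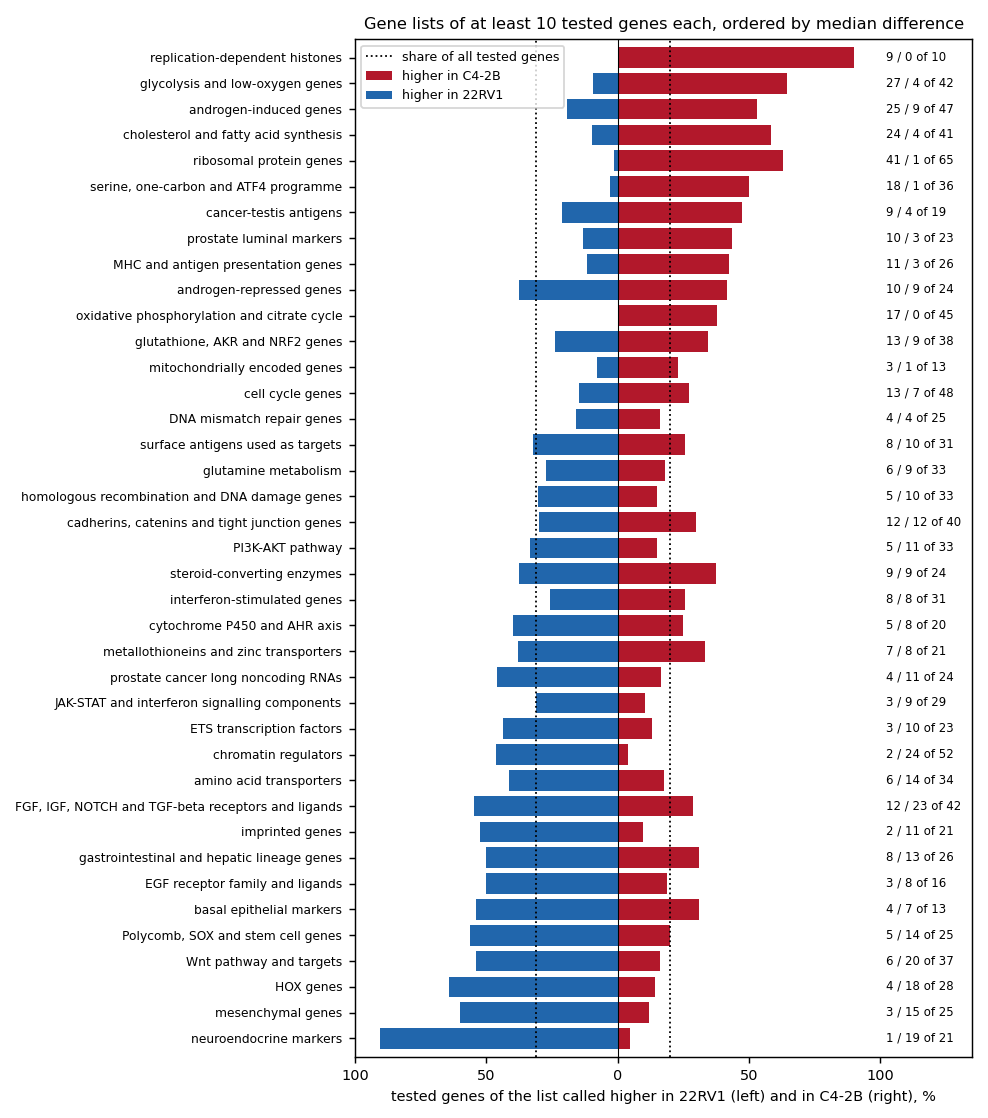
Bars give the percentage of each list's tested genes called higher in C4-2B (red, right) and in 22RV1 (blue, left), ordered by median difference, for lists that each hold at least 10 tested genes; numbers at the right are called in C4-2B, called in 22RV1 and tested. Dotted lines mark 20.0% and 31.2%, the shares over all 19876 tested genes.

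The cell cycle genes CDKN1A, CDKN2A, CCND1 and CDK6 were all higher in 22RV1. The cell cycle list as a whole had more calls on the side of C4-2B, as given below. CDKN1A, the p21 inhibitor, had 1779, 1463 and 1656 normalized reads in C4-2B and 5244, 5302 and 5391 in 22RV1. EDA2R, a death receptor outside the cell cycle list, had 0, 0 and 4.99 normalized reads in C4-2B and 288, 323 and 263 in 22RV1. CDKN2A, which codes for the inhibitors p16 and ARF, had 20.1, 0 and 7.99 normalized reads in C4-2B and 589.7, 634 and 569 in 22RV1; the lowest 22RV1 library lay far above the highest of C4-2B. CCND1, cyclin D1, was 5.49-fold higher in 22RV1, with 4417, 4584 and 4837 normalized reads in C4-2B and 25956, 24436 and 25590.5 in 22RV1, and its partner kinase CDK6 201-fold, with 7.54, 4.01 and 11.98 normalized reads in C4-2B and 1641, 1624 and 1477 in 22RV1. MKI67, a proliferation marker, had a difference of -0.56 ± 0.06 (SE, adjusted p = 7.3e-05), under the minimum size, which became 0.64 after correction. MYC, a growth-promoting transcription factor, was not called (0.18 ± 0.08, SE), and its difference became -0.26 after correction, so neither gene has a settled direction. Of 48 cell cycle genes 13 were higher in C4-2B and 7 in 22RV1, against 20.0% and 31.2% of all tested genes.

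Of 33 tested recombination and damage genes 18 were not called, as were 9697 of all 19876 tested genes. In this list 5 genes were higher in C4-2B and 10 in 22RV1, near the 20.0% and 31.2% of all tested genes. After correction the counts became 6 and 1, the median turning from -0.10 to 0.33. BRCA2 and its pathway member BARD1, both on the side with fewer calls before correction, were 3.14-fold and 6.54-fold higher in C4-2B. Chromatin regulators, many of them long genes, were higher in 22RV1 in 24 of 52 and in C4-2B in 2, and after correction in 13 and 4. CHD5 and CHD7, chromatin remodelers, were 21.6-fold and 12.1-fold higher in 22RV1.

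Growth factor genes were called in both directions, and several list counts moved with the correction. The counts below stand against 20.0% of all tested genes higher in C4-2B and 31.2% in 22RV1. After correction those shares were 19.7% and 26.0%. Of 33 tested PI3K-AKT genes 5 were higher in C4-2B and 11 in 22RV1, and 7 and 5 after correction, the median turning from -0.23 to 0.44. PIK3CD, a PI3K catalytic subunit, was 8.91-fold higher in C4-2B. IRS2 and IRS1, adaptors of the insulin receptors, were 163-fold and 8.799-fold higher in 22RV1, with 13.8, 29.4 and 25.96 normalized reads in C4-2B and 3578, 3974 and 3712 in 22RV1 for IRS2. Of 16 tested EGF family genes 8 were higher in 22RV1, among them ERBB4, AREG, BTC and NRG3, none of which had a read in C4-2B, and 3 in C4-2B; after correction the counts were 7 and 5. Of 37 Wnt genes 20 were higher in 22RV1 and 6 in C4-2B, and 15 and 4 after correction. LEF1, the transcription factor at the end of the pathway, had 6.28, 16.1 and 5.99 normalized reads in C4-2B and 584, 527 and 527 in 22RV1, and the secreted inhibitors DKK1 and WIF1 had 0 reads in C4-2B against 32.1 to 54.6 and 54.6 to 109.9 normalized reads in 22RV1. Of 42 tested genes of the FGF, IGF, NOTCH and TGF-beta list 23 were higher in 22RV1 and 12 in C4-2B (median -1.03), and 16 and 13 after correction (median -0.08). The Notch-related repressor HES6 was 37.9-fold higher in C4-2B, with 3805, 3566 and 3167 normalized reads in C4-2B and 83.7, 71.02 and 124 in 22RV1, and BMP2 had no read there against 297 to 320.5 in 22RV1. ETV4 and ETV5, ETS factors induced by MAP kinase signalling, were 41.7-fold and 127-fold higher in 22RV1, alongside ETV1. ERG, the ETS gene most often fused in prostate cancer, had 0 reads in all 6 libraries.

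Antigen presentation genes leaned to C4-2B, with 11 of 26 tested higher there and 3 in 22RV1. STING1, the sensor of cytosolic DNA signals, had 114, 111 and 68.9 normalized reads in C4-2B and 0 in all 3 22RV1 libraries. BST2 and IFI6, interferon-induced genes, were 18.5-fold and 28.9-fold higher in C4-2B. Over 31 tested interferon-stimulated genes, however, the calls were 8 in each direction. Among all tested genes 20.0% were called higher in C4-2B and 31.2% in 22RV1. STAT6, the effector of interleukin 4, had 22.6, 20.1 and 37.9 normalized reads in C4-2B and 1941, 1783 and 1921 in 22RV1, 70.01-fold higher in 22RV1, and IFNLR1, a receptor for type III interferons, 0 to 0.998 against 170.1 to 203 in C4-2B against 22RV1.

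Cancer-testis antigens, germline genes that tumours express, differed member by member. PAGE1 had 4047, 3609 and 3673 normalized reads in C4-2B and 0, 4.55 and 1.605 in 22RV1, 1840.0-fold higher in C4-2B. MAGEA4 had 16.3, 20.1 and 46.9 normalized reads in C4-2B and 2071, 2245 and 2021 in 22RV1, 76.04-fold higher in 22RV1, and SSX3 0 reads in all 3 C4-2B libraries and 532, 519.9 and 601 normalized reads in 22RV1. Over 19 tested genes 9 were higher in C4-2B and 4 in 22RV1, against 20.0% and 31.2% of all tested genes. Close paralogs make single members uncertain. AHR, the receptor of aromatic hydrocarbons, and its target CYP1A1 were 32.6-fold and 19.98-fold higher in 22RV1. The metallothioneins MT1E and MT1G, which bind zinc, had 0 against 88.3 to 116 and 0 to 2.68 against 106 to 124 normalized reads in C4-2B against 22RV1, and MT1F had 51.9 to 93.6 against 0.9 to 14.6 on the opposite side, within a family of near-identical genes.

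Other genes were among the 10 with the largest differences in each direction at or above the median level. Higher in C4-2B were RAB25, an epithelial recycling GTPase, at 63.4-fold, REEP6 at 41.9-fold and LRRC26, a potassium channel subunit, at 39.3-fold. Higher in 22RV1 were HSPB6, a small heat shock protein, with 42.7, 0 and 14.98 normalized reads in C4-2B and 5441, 5989 and 5364 in 22RV1, and SYTL2, a vesicle trafficking protein, with 36.5, 17.4 and 26.96 normalized reads in C4-2B and 7873, 8169 and 7402 in 22RV1 (290.2-fold). KIAA1324 was 101-fold, BSN, a scaffold of presynaptic release sites, 48.6-fold and SLITRK6, a neuronal adhesion protein, 50.4-fold higher in 22RV1. For HSPB6 and BSN the C4-2B libraries varied widely, from 0 to 42.7 and from 1.26 to 62.9 normalized reads, and all 22RV1 libraries lay above them.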

How the data were processed

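The deposited values were read counts per gene divided by a size factor (a signal scale), with each line normalized in its own table by the authors. DESeq is listed, version unstated, per the submitters' processing notes. Genome build, annotation and aligner are not stated in those notes or the file headers. Each column of the 6 control libraries was divided by its smallest step, which gave whole reads for 100% of values within 0.01. The tables were joined on gene symbol (60314 symbols; 1 entry without a symbol was left out), scaled jointly with TMM (edgeR 4.0.16) and tested with limma 3.58.1 (R 4.3.3; moderated, with trend and robust variance) on log2(normalized reads + 1), for genes with at least 10 normalized reads in at least 3 libraries. Every adjusted p in the text is limma's, with Benjamini-Hochberg adjustment over 19876 genes; these fold changes understate the change of low genes. Since limma on log2 values was the stated test, edgeR's quasi-likelihood test and DESeq2 1.42.0 on the reads were run as alternatives. Folds are ratios of mean normalized reads. GC content and length came from GENCODE 29 (95.7% of tested genes matched), with lowess curves of span 0.3. Scripts were tested on simulated data.

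The lines compared, the gene lists (1526 genes in 45 lists, of which 1173 genes were tested) and the tests were chosen with earlier results of these data known. A gene in several lists is counted once in these numbers. Named genes are the 10 largest rises and falls among called genes at or above the median level whose lines did not overlap, a fixed set of genes, up to 4 called genes per list, and the 8 genes with the most reads among those seen in 1 line. Some genes that the rule names are not reported here. Genes outside the rule were chosen after their values were seen. Members of near-identical families are uncertain. Library numbers did not pair the samples.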

Additional observations from a re-analysis of the deposited data

How the results depend on the processing

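Of 228 named genes that were tested, 200 kept their call under all 23 alternatives that applied to them, and 28 did not under at least 1. The number of genes higher in C4-2B (3979) was 2546 when tested against a difference of 1 with limma's treat and 6421 without a minimum difference, and the number of genes higher in 22RV1 (6200) was 3662 among genes with a mean of at least 50 normalized reads. DESeq2 gave 3846 and 6206, edgeR's quasi-likelihood test 4085 and 5968. Genes seen in C4-2B alone (28) numbered 48 from 50 normalized reads, 8 from 500, and 75 with up to 30 reads allowed in the other line; those seen in 22RV1 alone (293) numbered 507, 50 and 632. Leaving out 1 library at a time gave 3783 to 3950 and 5636 to 6437 called genes, 30 to 39 and 302 to 357 genes seen in 1 line, a difference in detected genes per library of -8855 to -8014 and in the mitochondrial share of 2.08 to 2.21 percentage points; that share differed by 0.373 points over protein-coding mitochondrial genes. C4-2B's share of all calls was 39.1%, and 52.1% under quantile normalization, 26.3% under equal totals and 43.1% after the correction for GC content and length, which was added after the data had been seen. That correction turned the SLC7A11 log2 difference, which was not called, to a called 1.46, and changed the sign of MKI67, MYC, CDH1, FOXA1 and KRT8, which were not called in either; the cause was not tested. With the replicate block 3947 and 6260 genes were called and no named gene changed its call; same-numbered libraries did not deviate together. With 10245014 to 13627140 reads per library, genes under the filter were not tested, and a fold against a line without reads is a lower bound that covers counting error only.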
